A study of Mus musculus with 2 samples.

Results

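Foxf2-FLAG binding was described at Bcor, the corepressor gene with the most assigned binding regions in the data, together with its paralogue Bcorl1 and its protein partner Bcl6. These 3 of 22367 protein-coding genes held 15 of the 9165 peaks, 12 at Bcor, 1 at Bcorl1 and 2 at Bcl6. A peak belonged to a gene if its centre lay inside the gene body, or if the gene's transcription start site (TSS) was the nearest protein-coding TSS and lay within 100 kb. Bcor was selected on the number of assigned peaks, so that number is a description and was not tested. Bcorl1 and Bcl6 were added by name.

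The data came from palatal shelves, the paired outgrowths of the upper jaw that fuse into the palate, dissected as 50 pairs at E13.5 (embryonic day) from mice whose endogenous Foxf2 protein carried a 3xFLAG tag. All embryos were homozygous for the tagged allele, in the ChIP library (anti-FLAG antibody) and in the input library alike (sonicated chromatin with no antibody). The shelves were pooled, there was 1 library of each kind, and no untagged ChIP library was analysed here. Differences between peaks therefore have no replicate check, and in a pooled tissue, binding in few cells cannot be told apart from weak binding in many. The sex of the embryos is not stated in the labels, so the number of X chromosomes behind the values at Bcor and Bcorl1 is unknown.

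Foxf2 belongs to the forkhead family of transcription factors, is made in palatal mesenchyme cells and is needed for closure of the palate in mice. Forkhead proteins bind short sites such as GTAAACA. BCOR is a transcriptional corepressor that was identified through its binding to the BTB domain of the repressor BCL6. It is also a subunit of PRC1.1, a variant Polycomb complex that is brought to CpG islands by KDM2B and marks histone H2A with ubiquitin. In humans, loss of BCOR function causes oculofaciocardiodental syndrome, in which the palate can be cleft.

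The Bcor gene (ENSMUSG00000040363) lies on the minus strand at chrX:11613866-11737481 (mm9, GENCODE vM1). Its protein-coding transcripts start at 3 places, the most upstream start at 11737481 (transcript Bcor-005), a middle pair at 11705526 and 11705476 (Bcor-006 and Bcor-007), and a downstream start at 11657679 (Bcor-001 to Bcor-004). The coding span of the complete transcripts, 11614755 to 11638733, lies downstream of all of these starts. Peaks are numbered 1 to 12 in the direction of transcription.

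In 4 of the 12 peaks a forkhead site lay in the central 200 bp, and these sites are shown with their flanking bases because they are the matches to the forkhead motif nearest to the peak centres. Sequences are 5′ to 3′ on the plus strand of mm9, opposite to the gene, and capitals mark each match on either strand to GTAAACA or to its variants, which were ATAAACA, then GTAAATA, and then ATAAATA (in these sequences TGTTTAC is a minus-strand match to GTAAACA).
Bcor peak 2, chrX:11730677-11730737: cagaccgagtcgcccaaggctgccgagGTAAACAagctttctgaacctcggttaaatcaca
Bcor peak 4, chrX:11710632-11710692: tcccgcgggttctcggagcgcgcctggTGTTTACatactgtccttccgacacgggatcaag
Bcor peak 10, chrX:11655431-11655491: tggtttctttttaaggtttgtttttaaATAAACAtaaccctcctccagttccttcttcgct
Bcor peak 11, chrX:11646592-11646652: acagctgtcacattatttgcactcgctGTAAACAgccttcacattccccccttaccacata
The site was GTAAACA in peaks 2, 4 and 11 and ATAAACA in peak 10, each present once. GTAAATA and ATAAATA had 0 matches in the central 200 bp of any Bcor peak. In that window GTAAACA was present in 3 of 12 Bcor peaks (25%, Wilson interval 8.89 to 53.2). The interval includes the 15.3% of all peaks, so no preference for this word at Bcor can be read. Shares of all peaks are not given for each of the other words, so their counts are a description only.

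Peaks 1 and 8 held sites only away from their centres.
Bcor peak 1, chrX:11817892-11817997: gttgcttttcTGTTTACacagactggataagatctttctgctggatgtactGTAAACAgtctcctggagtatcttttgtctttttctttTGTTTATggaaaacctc
Bcor peak 8, chrX:11694485-11694545: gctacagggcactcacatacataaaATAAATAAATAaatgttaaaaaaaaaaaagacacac
Peak 1 is shown because its 3 sites, 2 of GTAAACA and 1 of ATAAACA, were the most in any Bcor peak, yet they lay 116 to 195 bp from the peak centre. In peak 8, 2 overlapping ATAAATA matches lay in an AT-rich run 236 and 240 bp from the centre. The remaining 6 peaks had 0 matches anywhere, the peak at the middle start among them, whose central 120 bases are shown with CG dinucleotides in capitals.
Bcor peak 5, chrX:11705796-11705915: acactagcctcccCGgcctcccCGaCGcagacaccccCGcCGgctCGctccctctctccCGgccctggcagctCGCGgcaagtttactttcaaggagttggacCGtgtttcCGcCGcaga

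The 10 Bcor peaks inside the gene all had their centres in intron 1 of the longest transcript, Bcor-005. That intron spans chrX:11638773-11737414, 98.6 kb and 79.8% of the gene, and it contains the middle and downstream starts of the shorter transcripts. From exon 2 of Bcor-005 to the 3′ end, a stretch of 24.9 kb with the whole coding span, there were 0 peaks, and the nearest peak edge was 7.46 kb upstream of it. Only peak 9, at the downstream start, overlapped an annotated Bcor exon. Peaks 1 and 12 lay outside the gene, 80.6 kb upstream of the most upstream start and beyond the 3′ end.

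**Figure D1:**
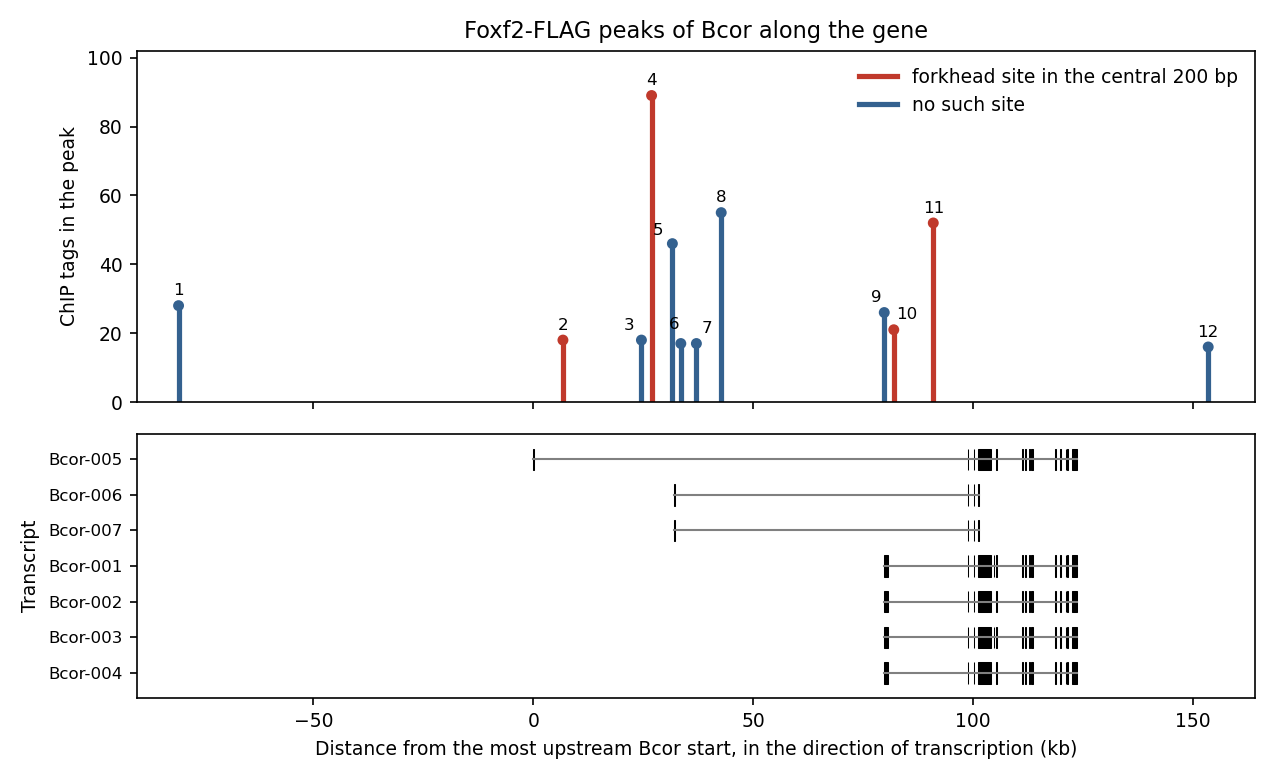
Foxf2-FLAG peaks of Bcor by distance from the most upstream start (kb, in the direction of transcription). Stems give the ChIP tags of each numbered peak, red where a forkhead site lay in the central 200 bp, and the lower panel shows exons (black) of each protein-coding transcript. The 10 peaks inside the gene stand over the long first intron of Bcor-005, none over the exons that follow it, and peak 4 is the highest at 89 tags.

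At the most upstream start itself there was no peak. Peak 2 (chrX:11730482-11730982, 500 bp) was the nearest to it, 6.75 kb downstream, with 18 ChIP tags against 1 input tag, a deposited fold of 12.89 over input (exact 95% interval 2.04 to 537). The interval is conditional on both tag numbers and covers counting error only. It leaves out variation between immunoprecipitations, as there was 1 library of each kind, and the selection of peaks at 10-fold or more. Peaks 2 and 3 also lay in the body of 2900008C10Rik, a processed transcript on the same strand (chrX:11711585-11737472), and 0 Bcor peaks overlapped its exons.

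Around the middle starts, 6 peaks (3 to 8) stood within 18.8 kb. They held 242 of the 403 ChIP tags of the Bcor peaks, 60.05% (Wilson 95% interval 55.2 to 64.7). This interval treats tags as independent, although they are grouped in peaks, and it leaves out variation between immunoprecipitations. It is therefore too narrow. The group was also picked as the 20 kb with the most Bcor peaks, so its share is a description only. Peak 4 (chrX:11710141-11711019) was the widest Bcor peak, at 878 bp, and had the most tags, 89 against 5 in the input (12.75-fold, 5.26 to 40.2). It lay 5.05 kb upstream of the middle start, and it had more tags than 90.4% of all peaks. The authors' score of this peak, 21, was below those of peaks 5, 8, 10 and 11, although each of these had fewer tags.

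Peak 5 (chrX:11705605-11706105) was centred 0.329 kb upstream of the middle start, with 46 tags against 3 (10.98-fold, 3.53 to 55.2) and the highest score at Bcor, 49. Peak 8 (chrX:11694366-11695140), 10.7 kb downstream of that start and 774 bp wide, had 55 tags against 3 (13.13-fold, 4.27 to 65.6). These 3 peaks carried most of the signal of the group. Peaks 3, 6 and 7 were weaker, at 18, 17 and 17 tags, and peaks 6 and 7 had 0 input tags, so the authors' fold of 24.35 rests on the 0.5 tags written in place of 0 and only its lower bound of 2.96 can be given.

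At the downstream start, from which 4 annotated transcripts begin, peak 9 (chrX:11657373-11658019, 646 bp) was centred 0.017 kb upstream, with 26 tags against 1 (18.62-fold, 3.06 to 764). Peak 10 (chrX:11655281-11655781) lay 2.15 kb inside the transcripts with 21 tags against 1 (15.04-fold, 2.42 to 622). Peak 11 (chrX:11646229-11646878, 649 bp) lay 11.1 kb inside them with 52 tags against 3 (12.42-fold, 4.02 to 62.2). All 3 of these intervals overlap, so no order of enrichment among them can be read.

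Outside the gene, peak 1 (chrX:11817850-11818350) had 28 tags against 2 (10.03-fold, 2.53 to 86.9), and peak 12 (chrX:11583812-11584312) had 16 against 1 (11.46-fold, 1.78 to 481). Peak 12 had the fewest tags of the 12. They were the farthest peaks within the 100 kb limit, at 80.6 and 73.6 kb from the nearest Bcor start. With starts of genes of every type counted, not only protein-coding ones, Bcor kept the 10 peaks inside it but not peaks 1 and 12. Another 5 peaks had Bcor as nearest gene but lay 128 to 278 kb away. The nearest of these had 18 tags against 1, and the 1 with the highest score, 69, at chrX:11927258-11927758 and 190.0 kb upstream, had 67 against 4 and a forkhead site in its central 200 bp. The 2 protein-coding genes within 500 kb of Bcor were Atp6ap2, an accessory subunit gene of the vacuolar proton pump, with 0 peaks, and 1810030O07Rik with 1 peak of 16 tags.

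Most of the Bcor peaks were weak, and a few were above the middle of the list. The median Bcor peak had 23.5 ChIP tags (range 16 to 89) against 30 (14 to 693) over all peaks, 4 of 12 exceeded that median, and 5 of 12 had at most 20 tags, as did 29.0% of all peaks. The median fold was 12.89 at Bcor and over all peaks. Peaks were called only at 10-fold or more over input, so no fold can fall below 10. A peak with few ChIP tags therefore passed only with few input tags, and similar folds are in part set by this filter. Pooled over the 12 peaks, 403 ChIP tags stood against 21 input tags, a 13.7-fold excess (8.87 to 22.5), against a pooled 13.7-fold over all peaks and 14.9-fold over the 195 peaks of the X chromosome. Input tags were 3.02 per kb in the Bcor peaks, 2.94 per kb in X peaks and 3.82 per kb in all peaks, against a genome mean of 9.62. ChIP tags were 58.0 per kb in the Bcor peaks and 73.0 per kb in all peaks, against a genome mean of 13.4. The pooled folds at Bcor and over all peaks thus both combine input below the genome mean with ChIP tags above it. Peaks were selected at 10-fold over input, so this is not a trait particular to Bcor. The genome means used the genome size in the file header. Of the Bcor peaks, 8 were 500 bp wide and 4 were wider.

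**Figure D2:**
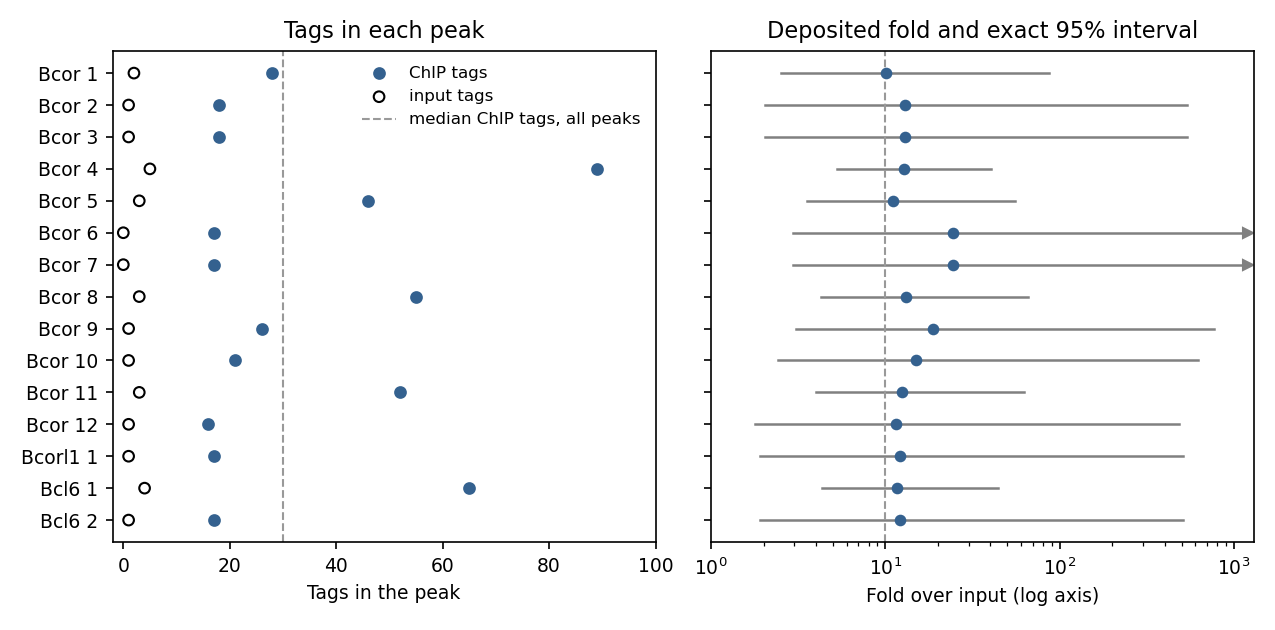
Left, ChIP tags (filled) and input tags (open) of each peak of Bcor, Bcorl1 and Bcl6, with the median of all peaks (30 tags) as a dashed line. Right, the authors' fold over input with its exact 95% interval on a log axis, arrows where 0 input tags leave no upper bound, and the required 10-fold as a dashed line. Of the 15 peaks, Bcor peaks 4, 5, 8 and 11 and Bcl6 peak 1 lie above the median, and every interval includes 10.

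By peaks assigned through the nearest TSS, Bcor led all genes with 12, at a background of 22.0% of genes with at least 1. Genes with 9 were Tgfbr3, which encodes the TGF-beta coreceptor betaglycan, and Tcf4, which encodes a basic helix-loop-helix E protein. Among the 5 genes with 8 were, with the most tags, Bnc2 (a zinc finger protein gene), Arhgap24 (a GTPase-activating protein gene) and 4930558K02Rik. The median peak inside or assigned had more tags at each of these genes than the 23.5 at Bcor, with 63 tags at Tgfbr3, 36 at Tcf4, 28 at Bnc2, 51.5 at Arhgap24 and 47 at 4930558K02Rik. The tags summed over assigned peaks were 704 at Tgfbr3, 548 at Tcf4, 596 at Bnc2, 584 at Arhgap24 and 516 at 4930558K02Rik, all above the 403 at Bcor.

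When peaks inside gene bodies were counted as well, Bcor no longer had the most. Under this count, with a background of 23.9% of genes with at least 1 peak, Gm20388 (39 peaks in a gene model of 4435 kb), Fgfr2 (24), Macrod2 (16), Dnm3 (15) and Odz4 (13) had more, and Auts2 also had 12. These genes are annotated as 496 to 4435 kb long, against 124 kb for Bcor. Among 991 genes of 100 to 150 kb, 591 had 0 peaks inside, the highest after the 10 of Bcor was 6, at Itgb5 (an integrin gene) and Rai14, and the median was 0.

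Few protein-coding genes lie near Bcor, and the part of this in its number of assigned peaks was not tested. With a limit of 10 kb in place of 100 kb, Bcor still had 10 peaks inside or assigned. The sequence nearer to its starts than to any other within 100 kb was 279.8 kb, the 394th longest of 22367 genes. Per 100 kb of such sequence, Bcor had 4.29 assigned peaks, all genes together 0.433 and X chromosome genes 0.154. Of the 84 genes with at least 5 assigned peaks, 9 had a higher density than Bcor, 4930558K02Rik (7.61 per 100 kb) among them.

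The 10 peaks inside the gene were also close together. Bcor was selected on its number of peaks, so short gaps follow in part from that choice and were not tested. Within the gene, neighbouring centres were a median of 4.73 kb apart, against 131 kb over all peaks and 286 kb on the X chromosome. Peaks 1 and 12, outside the gene, lay 86.9 and 61.9 kb, edge to edge, from the next Bcor peak. The 6 peaks at the middle starts were the most found in any 20 kb, and of the 9165 windows that start at a peak only this one held 6. When only peaks of at least 20 tags were counted it held 3, a number reached in 91 windows, so the count rests on the weak peaks. With peaks within 2 kb merged it held 4, a number reached in 11 windows, and the highest elsewhere was 5. A window as long as the gene, 124 kb, held 10 peaks at Bcor and nowhere else in the list. This length was taken from Bcor, which was itself selected on its peaks, so the count is a description only. In 50 kb, Bcor held at most 7, a number reached in 6 windows, and the highest elsewhere was 8.

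**Figure D3:**
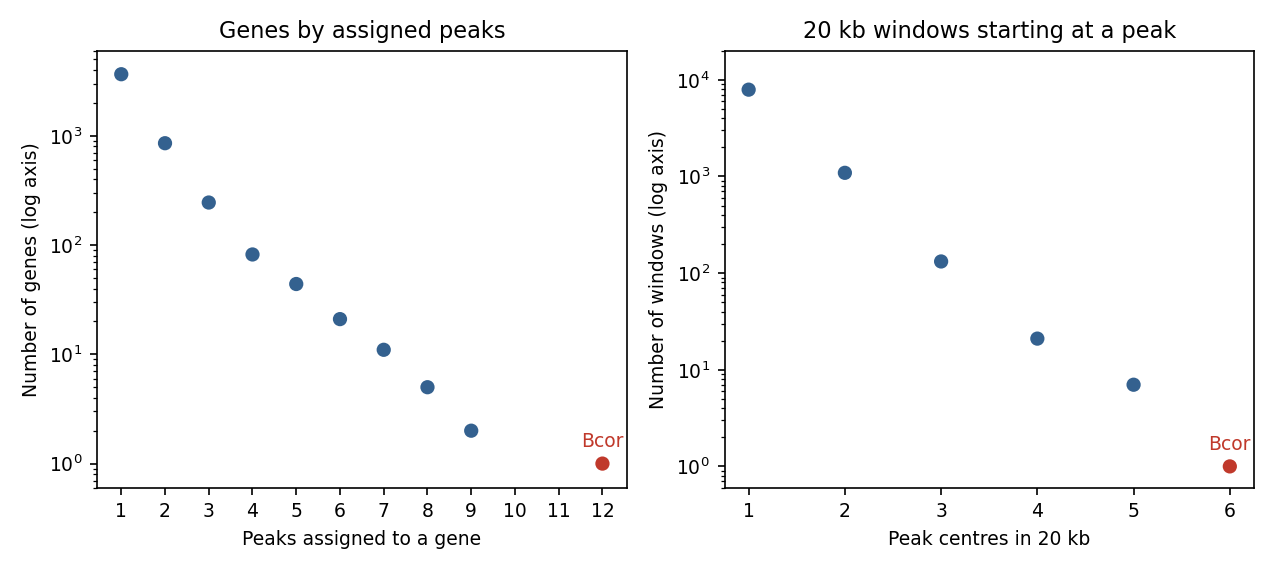
Left, number of protein-coding genes (log axis) by number of assigned peaks. Right, number of 20 kb windows starting at a peak (log axis) by peak centres they hold. Bcor, in red, is the gene with 12 peaks and the window with 6.

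On the X chromosome the contrast was larger. Its 195 peaks amounted to 1.17 per Mb against 3.63 per Mb over the autosomes, and 12.6% of its 932 protein-coding genes had a peak inside or assigned. Bcor held 12 of the 195 (6.15%) and 5.75% of the ChIP tags in X peaks. The next X genes were Sh3kbp1 (an adaptor protein gene) with 4 assigned peaks, Gpc3 (a glypican gene) with 3 and Ddx3x (an RNA helicase gene) with 3.

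A forkhead site lay in the central 200 bp of 4 of 12 peaks (33.3%, Wilson 95% interval 13.8 to 60.9), against 40.8% of all peaks, a difference not detectable with 12 peaks. Of the 10 Bcor peaks beyond 1 kb of a TSS, 4 had a site (40%, 16.8 to 68.7), against 51.5% of such peaks in the list and 61.8% of those on the X chromosome (63.4% with Bcor left out). The 2 promoter peaks, 5 and 9, had none, where 9.89% of promoter peaks had one. In windows of equal width 2000 bp to the left and right, a site was found beside 2 and 1 of the 12 peaks, against 18.2% and 17.8% of all peaks. For peaks 3, 4, 5, 6, 9 and 10, 1 of these windows overlapped a neighbouring Bcor peak, so not all of them lie outside peaks. In the whole peak, 6 of 12 had a site, against 64.3% of all peaks.

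The sequence under the Bcor peaks was rich in G and C, also away from the starts. The median GC content of the central 200 bp was 59% over the 12 peaks. Of the 10 peaks beyond 1 kb of a TSS, 9 exceeded the 43% median of such peaks in the list, and 6 (peaks 2, 3, 4, 7, 11 and 12) lay above 90% of them. Peak 4 was at 72.5% with 22 CG dinucleotides in 200 bp, and peak 8 was the exception at 38.5% with 2. The median of the 10 was 57.75%, against 39.5% for the other 134 X peaks beyond 1 kb. The surroundings were GC-rich too: flanking windows of the 10 peaks had a median of 50.4%, intron 1 of Bcor-005 51.7% and the X chromosome 39.2%. For peaks 3, 4, 6 and 10, 1 flanking window overlapped a neighbouring Bcor peak, so the flank median partly covers peak sequence.

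Forkhead sites were less frequent in GC-rich peaks of the list, and the Bcor peaks are too few to show either order. Among peaks beyond 1 kb with a GC content of at least 50%, 401 of 1416 had a site (28.3%), against 57.6% of those under 50%. At Bcor the 4 peaks with a site were all among the 7 with at least 50%, and 0 of the 3 below had one. Over the whole peak in place of the central 200 bp, 4 of the 7 and 2 of the 3 had one, so the order at Bcor depends on the window. For the central 200 bp, the Wilson intervals of 25.05 to 84.2% and 0 to 56.1% overlap; the first includes the 28.3% and the second falls just short of the 57.6% of the list.

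**Figure D4:**
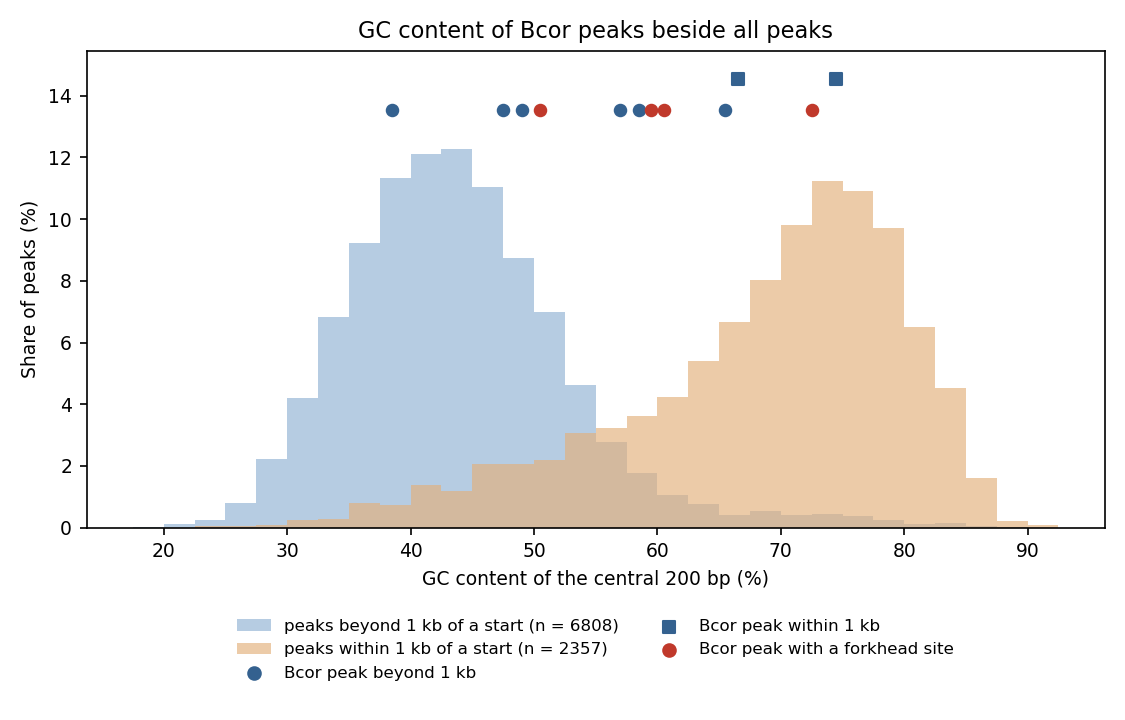
GC content of the central 200 bp (%) of all peaks beyond (blue) and within (orange) 1 kb of a protein-coding TSS, as shares of each class. Circles and squares above mark the Bcor peaks, red with a forkhead site, and 9 of the 10 circles lie above the 43% median of the blue class.

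Bcorl1 (ENSMUSG00000036959, chrX:45694535-45761226, plus strand), which encodes a corepressor that shares the PRC1.1 subunit role of BCOR, had 1 weak peak at its start. It lay at chrX:45694450-45694950, centred 0.165 kb downstream of the TSS in intron 1 of Bcorl1-001, with 17 ChIP tags against 1 input tag (12.18-fold, 1.91 to 509). Its score of 17 was the lowest value in the list, which Bcor peaks 6, 7 and 12 shared. It had a GC content of 69.5% and 0 forkhead sites in its whole width. The rest of the 66.7 kb gene held 0 peaks.

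Bcl6 (ENSMUSG00000022508, chr16:23965138-23988938, minus strand), which encodes the zinc finger repressor that recruits BCOR, had 2 peaks near its start. Bcl6 peak 1 (chr16:23988266-23989090, 824 bp) spanned the TSS, with its centre 260 bp downstream in exon 1, and had 65 tags against 4 (11.64-fold, 4.33 to 44.0). Bcl6 peak 2 (chr16:23985963-23986463) lay 2.73 kb downstream in intron 1, with 17 against 1 (12.18-fold, 1.91 to 509). Each had 1 ATAAATA match 203 and 156 bp from its centre, and neither had a match in the central 200 bp. By assigned peaks, 3659 genes had 1 like Bcorl1, 855 had 2 like Bcl6 and 17442 had 0.

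Genes of the PRC1.1 complex were next considered as a group, with the same rule of a peak inside or assigned. Of 10, 6 had a peak, and the median was 1. Without Bcor and Bcorl1, which were members by choice, it was 4 of 8, against 23.9% of all genes. These 4 were Kdm2b, Skp1a, Rnf2 and Usp7. Kdm2b, which encodes the CpG-binding subunit, had 2 promoter peaks, the stronger at chr5:123438767-123439711 with 95 tags against 5 (13.61-fold, 5.63 to 42.9) and a forkhead site. The best peaks of Skp1a (a subunit adaptor, 33 tags against 2), Rnf2 (the ubiquitin ligase RING1B, 36 against 1) and Usp7 (a deubiquitinase, 30 against 1) lay at most 0.403 kb from a TSS and had no site. Pcgf1, Ring1, Rybp and Yaf2 had 0 peaks.

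Other Polycomb genes had peaks in 11 of 23 cases, against 23.9% of all genes. Auts2, which belongs to another variant PRC1, had 12 peaks and 329 tags over 1106 kb, and Jarid2, a PRC2 cofactor gene, had 5 with 152 tags. Cbx7 had 1 peak of 96 tags against 4 with a forkhead site, 4.58 kb from its TSS, and Cbx2 had 1 promoter peak of 73 against 5. Aebp2, Ezh2, Phc2, Suz12, Eed and Phc1 had 1 or 2 peaks each, with 17 to 61 tags in the best.

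BTB zinc finger repressors, the family of Bcl6, had peaks in 6 of 15 cases, and in 5 of 14 without Bcl6 itself, against 23.9% of all genes. Zbtb20 had 4 with 199 tags in all, Patz1 2 with 84, Bcl6 2 with 82 and Zbtb16 2 with 70, while Hic1 and Zbtb38 had 1 each. Genes of other corepressor complexes had them in 20 of 33 cases, against the same 23.9%. Hdac9 led with 858 tags, of which 693 came from 1 peak in its body whose nearest TSS was that of Twist1. Ctbp2, a corepressor of short PXDLS motifs, had 3 peaks and 191 tags, Hdac4 had 3 and 156, and Tgif1 had 2 and 149. Others with a peak included Tbl1xr1, Tle4, Aes, Nrip1, Kdm1a, Mta1, Ncor1, Skil, Mta3, Hdac7, Tbl1x, Ski, Tle2, Hdac3 and Rcor2. Ncor1, whose product like BCOR binds BCL6, had 1 peak of 34 tags.

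Of 4 genes reported as partners or targets of BCOR, 3 had a peak, against 23.9% of all genes. Mllt3, whose product AF9 binds BCOR in human cells, had 6 peaks with 370 tags and forkhead sites at the centres of 4. Its best peak (chr4:87407141-87407894, 44.7 kb from its TSS) had 138 tags against 4 (24.71-fold, 9.44 to 92.0). Mllt1 had 1 promoter peak of 37 tags and Tfap2a, which encodes AP-2alpha and is a target of BCOR in human cells (Tcfap2a in the annotation), had 1 promoter peak of 20, while Irf8 had none. These list genes were chosen with results of these data known, and the counts are given without a test. Gene length and GC content also differ between genes, and their part in these counts was not tested.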

How the data were processed

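One anti-FLAG ChIP library and 1 input library of E13.5 palatal shelves were compared. Reads were aligned to mm9, with Bowtie 1.0.0, SAMtools 0.1.19 and HOMER named, per the submitters' processing notes. Peaks were called by the authors on the 1 ChIP library against the 1 input with findPeaks in histone style, which stitches 500 bp peaks, at 10-fold over input and over the surrounding 10000 bp and at most 1 tag per position, per the file headers. The limit over surrounding sequence removed 0 peaks, per the file headers. The deposited signal is ChIP tags per 10000000. Scaled back by the total of 26849463 tags it lay within 0.134 of whole numbers (tolerance 0.15), summing to the header's 397999, and these whole tags were used. Input coverage columns, the authors' ratio (fold over input), score and Poisson p-value were used as deposited to describe and filter peaks. Input depth followed from the scaled column as 19240000 tags.

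Peak ends fit the NCBIM37 chromosomes, the assembly of mm9, and genes were GENCODE vM1. Starts of all protein-coding transcripts counted. The deposited starts and ends are printed unchanged. Sites were searched on both strands. Fold intervals are exact, intervals of shares of peaks are Wilson 95% intervals, and assignment and site search were tested on simulated data. With 1 library per group no test between conditions was run. Python 3.11.15, pandas 2.3.3 and scipy 1.17.1 were used. Alternatives varied the distance limit, the starts, the peak threshold, the merging of peaks and the motif window. Members, lists and most alternatives were chosen with earlier results of these data known. Named were the members, list genes with a peak (values for the 4 with the most tags), the 5 other genes and 3 other X genes with the most assigned peaks, and genes within 500 kb of Bcor. The genes with as many or more peaks inside or assigned, and Itgb5 and Rai14, were named after their values were seen. Some list genes with a peak are counted but not reported here by name.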

Additional observations from a re-analysis of the deposited data

How the results depend on the processing

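The 12 Bcor peaks ranged from 9 to 17 under the alternatives of distance, starts, peak edge, gene body and merging, but depended on the threshold: 4 remained at 15-fold over input, 4 at 30 or more ChIP tags and 3 at or above the median score. Those at 15-fold were peaks 6, 7, 9 and 10, and those at 30 tags were peaks 4, 5, 8 and 11. No Bcor peak passed both, and the folds of peaks 6 and 7 rest on the 0.5 tags written in place of 0. Counting peaks inside or assigned, 5 genes had more than Bcor in the full list, and 7, 28 and 72 under these thresholds. Under these 3 thresholds Bcorl1 had 0, 0 and 0 peaks and Bcl6 had 0, 1 and 1, and Bcl6 had 1 with peaks within 2 kb merged. At 15-fold, 2315 genes had a peak in place of 5349, since fewer peaks were used. The 4 Bcor peaks with a forkhead site became 1 in the central 100 bp, 2 with 30 or more tags and 7 when the words ACAAACA, then GCAAACA, then ACAAATA and also GCAAATA were added. Shares of all peaks under these settings are not given, so these counts cannot be set against the list. The most Bcor peaks in 20 kb fell from 6 to 3 with 20 or more tags, an alternative chosen after seeing the data, as were those on GC content. Of 71 alternatives, 53 stayed within 1.5 times the value given, or within 1 SD for GC content. No paired analysis was possible because each group has 1 library. Depth limits single peaks: with 0 to 5 input tags at Bcor, no fold is known to better than its wide interval.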

Other observations

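Other short motifs were counted in the same central 200 bp of the Bcor peaks, as a description. The AP-2 pattern GCCNNNGGC was present in 4 of 12 Bcor peaks (2, 4, 10 and 12; 33.3%, Wilson 95% interval 13.8 to 60.9), all beyond 1 kb of a TSS, and in 11.8% of all peaks. Among peaks beyond 1 kb it was present in 4.95%, and among those with a GC content of at least 50% in 13.49%, against 4 of 7 at Bcor (57.1%, 25.05 to 84.2). Peaks 2, 4 and 10 of these also held the forkhead sites shown above. The motifs were chosen after the peaks had been examined, and the part of GC content in them was not tested.

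The SOX words AACAAAG and AACAATG were present in 3 of 12 Bcor peaks (all peaks 10.7%), the E-box CATCTG in 3 (16.1%), the TEAD word GGAATG in 2 (9.93%) and the SP/KLF word GGGCGGG in 2 (10.8%). The RUNX word TGTGGTT was in 0 of 12 (5.11%), as was TTCNNNGAA, the core of BCL6 and STAT sites (5.62%), which was present in Bcl6 peak 1. The Wilson interval of each of these counts at Bcor includes the share in the list.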
